A study of Mus musculus with 6 samples.

Results

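Peaks of open chromatin over 3' untranslated regions (3'UTRs) were followed in the quadriceps femoris, a thigh muscle that extends the knee, of Prr14-KO and Prr14-WT mice. They were taken as every peak that the deposited table puts in the class 3'UTR on chromosomes 1 to 19, which gave 2356 of the 75134 peaks in the table. Another 21 peaks of the class lay on chromosomes X and Y and were left out. The Prr14-KO group held replicates 4, 5 and 7 and the Prr14-WT group replicates 3, 4 and 8, from nuclei of frozen skeletal muscle profiled by ATAC-seq, in which a transposase cuts open chromatin and tags it for sequencing. The sources used here give no strain, age or sex, no account of how or where Prr14 was deleted, and no word on whether each library was its own animal, so p-values measure only the spread between libraries, part of which may be technical. PRR14 is a protein of the nuclear lamina that holds heterochromatin at the nuclear edge, and the series title ties it to mechanotransduction and, through MEF2C, to myofibre identity.

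The 3'UTR is the stretch of a messenger RNA after the stop codon, where microRNAs and RNA-binding proteins act on stability, translation and localisation. At the DNA level the same stretch can hold enhancers, starts of antisense or neighbouring transcripts, or the open chromatin that follows strongly transcribed gene bodies. A peak there is therefore a statement about the DNA of the last part of a gene and does not measure the RNA. In whole muscle, fewer nuclei of a type and less accessibility per nucleus cannot be told apart.

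Of the 2356 peaks, 19 held a start from the RefSeq table of promoter sequences and 7 held a miRNA hairpin. The starts came to 23 peaks when the outer ends of RefSeq gene spans of known strand are counted too. Sequences are shown for the 3 peaks among the 19 and the 7 that were called changed. In them an annotated start or a miRNA lies within DNA whose accessibility differed. The first pair of genes below are RefSeq entries that start inside the peaks over Eml6 and Mb. For them 30 bases are given, with the 20 bases before the start in lower case and the 10 bases from the start on in capitals (RefSeq, GRCm38.p6).
Gm39671, chr11:29808845-29808874, plus strand: agtgtggagattagggaaacAATTTGCCTG
Gm39671, chr11:29808864-29808893, plus strand: caatttgcctgctctgaaacTGAGCAGCAG
Gm39671, chr11:29809384-29809413, plus strand: ccgacacgagacattttccgTCAGCTGTAT
Gm52199, chr15:77014477-77014506, minus strand: agggaaggatgtcttttcacCGCACGGTGA
Gm52199, chr15:77015200-77015229, minus strand: gatcagtgccaggtgcccagGGCAGGAGAC
The miRNA lies in a peak over Pde4dip on chromosome 3. Both mature arms are given with the seed, bases 2 to 8, in capitals (RefSeq, GRCm38.p6), and the seeds differ.
mmu-miR-7225-5p, chr3:97690543-97690562, minus strand: aCGUAGACuguguagaagcc
mmu-miR-7225-3p, chr3:97690509-97690530, minus strand: cUUCUAGAcagccucugcagca

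The peaks with sequence above moved by less than 1 on the log2 scale. The Eml6 peak (chr11:29808097-29809736) had 22.5, 20.7 and 20.1 CPM (counts per 1000000 counts in peaks, scaled by library) in KO replicates 4, 5 and 7, against 34.8, 39.8 and 25.7 CPM in WT replicates 3, 4 and 8. All 3 KO libraries lay below all 3 WT libraries, with a log2 fold change of -0.67 ± 0.19 (SE) and an adjusted p of 0.0108. The call was lost without KO replicate 5 (adjusted p = 0.142), KO replicate 7 (0.0642), WT replicate 3 (0.0662) or WT replicate 4 (0.107), and with the authors' library factors (0.543) and in the authors' deposited table (0.464). The peak over Mb, which encodes the oxygen store myoglobin (chr15:77013692-77016004), had 84.2, 76.5 and 75.9 CPM in KO, against 42.8, 66.8 and 49.0 CPM in WT. KO libraries were the higher ones without overlap, with a log2 fold change of 0.57 ± 0.18 and an adjusted p of 0.0219. The Mb call was lost without KO replicate 4 (adjusted p = 0.124), KO replicate 5 (0.0829) or WT replicate 3 (0.229), with the authors' library factors (0.235) and in the authors' deposited table (0.107). The other 6 peaks that held a miRNA hairpin, over Mex3a, Scd2, Smtnl2, Esyt1, Srebf1 and Banp, did not pass the test, at log2 fold changes between -0.74 (Scd2) and 0.17 (Mex3a). These sequence-bearing peaks were chosen for display after their values were seen.

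The class mixed several kinds of place. The deposited table names for each peak the gene with the nearest start site, and this was the gene that holds the 3'UTR in 1398 of 2356 peaks (59.3%), while 935 peaks (39.7%) lay outside the RefSeq span of the gene named. Each peak was therefore given a host gene, either the gene of the transcript that set its class, where the table names that gene elsewhere (944 peaks), or otherwise the overlapping RefSeq coding gene with the nearest 3' end. Where both routes gave a gene they gave the same one in 874 of 894 peaks. A host was found for 2298 peaks in 2016 genes, of which 1786 genes held 1 peak and 230 held 2 or more. The host's outermost 3' end lay inside the peak for 380 of the 2278 peaks with a known end, and the median distance to it was 1603.5 bases, so many peaks lay over the ends of shorter transcripts. A start site of RefSeq was within 3 kb of 83 peaks. Starts of genes whose strand was not known were left out, so this count may be too low. Width ran from 214 to 7783 bases with a median of 802 bases, against 731 bases for all peaks of the table.

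Total counts in peaks were 9346968 to 12061822 in KO libraries and 7608514 to 11575061 in WT libraries. Prr14 itself had 1 peak, at its promoter, with 51.2, 59.7 and 70.7 CPM in KO and 62.3, 66.5 and 57.1 CPM in WT (log2 fold change -0.03 ± 0.18, adjusted p = 0.961), so the labels could not be checked from accessibility at the targeted gene. The defining promoters of myofibres, Acta1, Ckm, Tnnt3, Tnni2, Mylpf, Ttn and Ryr1, were open in every library, with a summed level of 970 to 1016 CPM in KO and 837 to 1310 CPM in WT. Markers of 8 other cell types summed to 114 CPM or less, and the macrophage and blood list had a promoter peak for 1 of 6 markers, at 1.89 to 3.94 CPM in KO and 3.13 to 3.4 CPM in WT. None of the marker promoters in the 9 lists was called changed. Only 6 tested peaks over 3'UTRs lay in marker genes (3 myofibre, 1 endothelial, 1 satellite cell, 1 Schwann cell) and 0 of them were called.

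Between the genotypes, the share of counts that fell in peaks over 3'UTRs differed by less than the spread between libraries. The share was 3.09%, 3.06% and 2.81% in KO and 2.91%, 3.13% and 2.78% in WT, or 2.99% ± 0.151 and 2.94% ± 0.178 (SD, n = 3 each; exact permutation test, two-sided, p = 0.9, where the smallest p possible is 0.1). The ranges overlapped, and without WT replicate 8 the difference of KO minus WT turned to -0.031 percentage points. After the filter on low counts 2334 peaks were tested, in a fit across all 73896 tested peaks of the table. The 22 peaks that were not tested had at most 75 reads in all libraries together.

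At an adjusted p below 0.05, 75 peaks over 3'UTRs were higher in KO and 109 were lower, together 184 of 2334 (7.88%). Over all tested peaks 7.01% were called, 2.77% higher and 4.23% lower, so the shares of 3.21% and 4.67% here were near those of the table at large. KO and WT libraries did not overlap with KO higher in 228 peaks (9.77%, against 9.17% of all tested peaks) and with KO lower in 274 peaks (11.7%, against 11.2% of all tested peaks). The median log2 fold change was -0.03, beside -0.01 for all tested peaks. Called peaks moved by a median of 0.91 on the log2 scale and at least 0.54, and 71 of 184 moved by 1 or more. The balance of rises and falls depended on the scaling. With the authors' library factors, which raise the median of all tested peaks to 0.19, it was 56 higher and 15 lower. Those factors ran from 0.977 (KO replicate 7) to 1.035 (KO replicate 5). Total counts in peaks ran from 7608514 (WT replicate 8) to 12061822 (KO replicate 5). With total counts alone as the scaling, the balance was 94 higher and 90 lower. No peak over a 3'UTR called in one direction was called in the other under any of the alternatives run. Counts of calls also moved with single libraries: without KO replicate 5 they were 33 higher and 44 lower, without WT replicate 4 they were 84 and 37, without KO replicate 7 they were 84 and 59, without KO replicate 4 the higher ones were 45, and without WT replicate 3 they were 46.

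**Figure D1:**
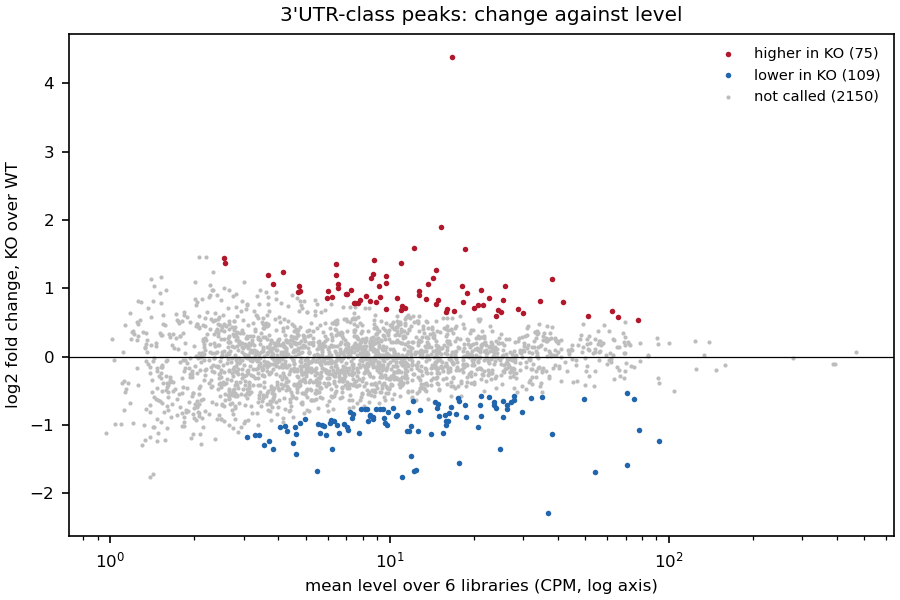
Log2 fold change of KO over WT (vertical axis) against the mean level over 6 libraries in CPM (horizontal axis, log scale) for the 2334 tested peaks over 3'UTRs, with 75 called higher in KO, 109 called lower and the rest grey. One peak stands far above the others at 4.39, and the deepest fall is at -2.29.

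Wider peaks were called more often, here and in the table at large. Of peaks over 3'UTRs under 500 bases, 5 were higher and 12 lower in KO out of 667 (2.55%), beside 2.83% of all tested peaks of that width. From 500 to under 1000 bases 30 were higher and 30 lower out of 799 (7.51%, against 8.14%). From 1000 to under 2000 bases 31 were higher and 47 lower out of 663 (11.8%, against 9.56%). At 2000 bases or more 9 were higher and 20 lower out of 205 (14.1%, against 11.2%). Level rose with width too: the median level of the 4 width classes was 2.73, 6.42, 13.7 and 36.9 CPM per peak, and 8.09, 8.58, 10.3 and 14.5 CPM per kb. Depth per peak thus moved together with the share called, and its part in the result was not tested. Without KO replicate 5, the calls in the 4 classes were 3, 24, 39 and 11, and without WT replicate 4 those of the narrower pair of classes were 3 and 36.

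**Figure D2:**
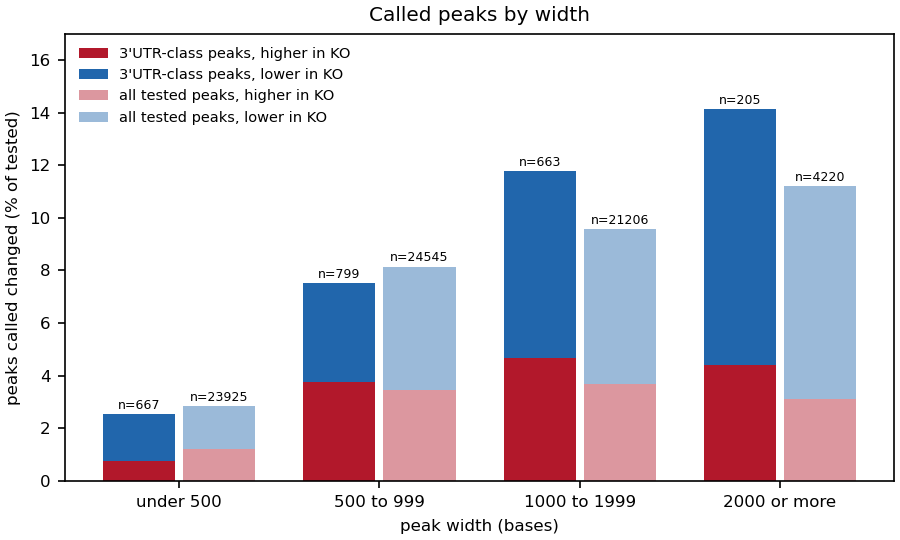
Percent of tested peaks called higher or lower in KO (stacked bars, vertical axis) in 4 classes of peak width in bases, for peaks over 3'UTRs (strong colours, left) and all tested peaks (pale colours, right), with the number tested above each bar. The share over 3'UTRs goes from 2.55% to 14.1% with width.

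Calls were spread along the gene. They fell on 32 of 378 tested peaks over the host's 3' end (8.47%) and on 36 of 533 within 1 kb of it (6.75%). At 1 to 10 kb from it they fell on 77 of 908 (8.48%), and at over 10 kb on 37 of 438 (8.45%). Among peaks within 3 kb of a RefSeq start, 5 were higher and 2 lower of 83 (8.43%). With both directions together, none of these shares was far from the 7.01% of all tested peaks. By direction, over 10 kb from the 3' end 2.28% were higher and 6.16% lower, against 2.77% and 4.23% of all tested peaks. Near a RefSeq start, KO libraries lay above all WT libraries in 20.5% of peaks and below in 6.02%, against 9.17% and 11.2%. These counts are small, and the differences were not tested.

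The deepest fall over a 3'UTR was at Mylk4, which encodes a myosin light chain kinase of striated muscle. The peak (chr13:32699102-32702590) had 17.1, 10.2 and 10.4 CPM in KO replicates 4, 5 and 7, against 61.0, 72.4 and 50.3 CPM in WT replicates 3, 4 and 8. Every KO library was under every WT library by a wide margin. The log2 fold change was -2.29 ± 0.20 (SE) with an adjusted p of 1.74e-27. The Mylk4 promoter was at -0.55 and did not pass (adjusted p = 0.0509).

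Another fast-muscle gene followed. The peak over the end of Myh4 (chr11:67259024-67263619), the heavy chain of the fastest fibres, which the table assigns to the neighbouring Myh8, had 69.0, 60.0 and 34.7 CPM in KO, against 129, 174 and 83.2 CPM in WT. KO libraries were again all lower, at a log2 fold change of -1.24 ± 0.18 and an adjusted p of 1.04e-09; with DESeq2 the adjusted p was 0.055. The Myh4 promoter fell as well (-1.08, adjusted p = 3.95e-07). Myosin heavy chain genes are alike in sequence, so the values there are uncertain where reads can map to near-identical copies. The other 4 of the 6 tested peaks over fast-fibre genes did not pass. Among these, the wide peaks over Tnnt3 (fast troponin T) and Mylk2 (skeletal myosin light chain kinase) had log2 fold changes of -0.13 and 0.22.

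Sgk1, a kinase induced by glucocorticoids, had 26.5, 26.1 and 24.6 CPM in KO and 78.4, 107 and 63.4 CPM in WT over its 3'UTR (chr10:21997919-22000969). The 3 KO libraries were nearly equal and all far below WT, at -1.69 ± 0.18 (adjusted p = 1.2e-16). Fbxo32 encodes atrogin-1, a ubiquitin ligase of muscle atrophy, and its peak (chr15:58175343-58179037), assigned by the table to Wdyhv1, had 23.5, 23.3 and 24.9 CPM in KO and 46.8, 69.0 and 41.2 CPM in WT. That difference was -1.13 ± 0.19 (adjusted p = 2.22e-07), and of the alternatives run only the authors' library factors ended the call (adjusted p = 0.0767). Foxo1, a transcription factor that insulin keeps out of the nucleus, had 16.5, 21.6 and 21.6 CPM in KO and 23.9, 38.8 and 34.8 CPM in WT. The Foxo1 groups did not overlap (-0.70 ± 0.19, adjusted p = 0.00683), but the call was lost without KO replicate 4 (adjusted p = 0.12), KO replicate 5 (0.0554) or WT replicate 4 (0.0991), with the authors' library factors (0.553) and in the authors' deposited table (0.48). Trim63, which encodes the ligase MuRF1, had a log2 fold change of -0.50 ± 0.17 and just missed the threshold (adjusted p = 0.055). Pik3r1, the regulatory subunit of PI3-kinase, had a pair of called peaks at -1.18 ± 0.40 (adjusted p = 0.0474) and -1.03 ± 0.32 (adjusted p = 0.0234), both under 5 CPM on average. The weaker Pik3r1 call was lost without KO replicate 4 (adjusted p = 0.0774), KO replicate 5 (0.356), KO replicate 7 (0.0684), WT replicate 3 (0.168) or WT replicate 4 (0.236), and the other one without KO replicate 5 (0.208), KO replicate 7 (0.11), WT replicate 3 (0.381) or WT replicate 8 (0.118). In the authors' deposited table neither passed (adjusted p = 0.227 and 0.309), and with DESeq2 they were at 0.0671 and 0.0954.

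Pde4dip, which encodes the centrosomal and Golgi scaffold myomegalin, had 6 tested peaks and 5 were lower. The one that holds Mir7225 (chr3:97690279-97691720) had 19.9, 19.2 and 14.5 CPM in KO, against 31.2, 36.6 and 30.8 CPM in WT, and lay at -0.88 ± 0.19 (adjusted p = 0.000294). The groups were apart, and the other called peaks, at -1.09, -0.98, -0.91 and -0.88, covered nearly the same fold change over a gene with several alternative ends. With the authors' library factors all 5 calls were lost (adjusted p = 0.0965 to 0.287). None of the 5 passed in the authors' deposited table (adjusted p = 0.121 to 0.393). Of these, 3 also rested on single libraries: the peak at -0.98 was lost without KO replicate 7 (adjusted p = 0.183), WT replicate 4 (0.326) or WT replicate 8 (0.127), the one at -0.91 without KO replicate 7 (0.13) or WT replicate 4 (0.0722), and the wider one at -0.88 without WT replicate 4 (0.0977). Peaks in one gene share their locus and are not independent of each other. Pde4dip is on chromosome 3, where 20 of 120 tested peaks over 3'UTRs were lower in KO (16.7%, beside 7.83% of all tested peaks there) and 2 were higher, so that this gene alone gave 5 of the 20.

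**Figure D3:**
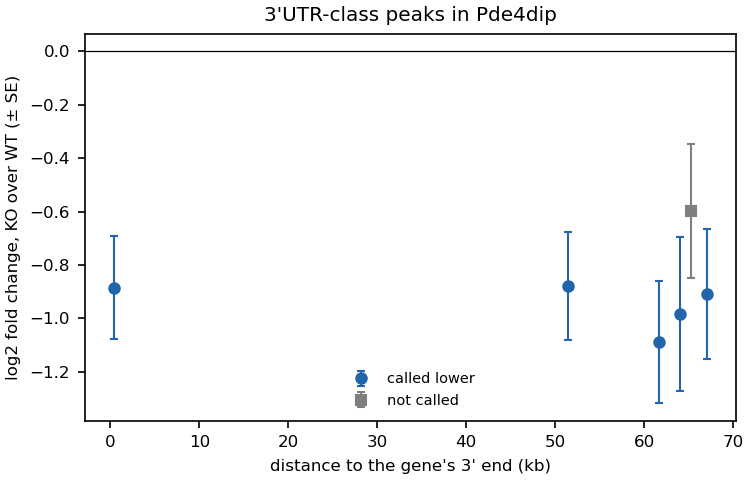
Log2 fold change of KO over WT with its SE (vertical axis) for each of the 6 tested peaks of the class in Pde4dip, by distance in kb to the gene's outermost 3' end. The 5 peaks called lower lie between -1.09 and -0.88, both near the end and far inside the gene.

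Other pairs lay in genes of receptor signalling and of amino acid metabolism. Grk3, a kinase of G protein-coupled receptors, had a pair of called peaks at -1.09 ± 0.22 (adjusted p = 6.99e-05) and -1.0 ± 0.27 (adjusted p = 0.00584), and 2 of its 4 tested peaks were called. The second was lost without KO replicate 5 (adjusted p = 0.0971) or WT replicate 4 (0.159). Arrdc3, an arrestin-like regulator of receptors, had peaks at -1.26 ± 0.32 (adjusted p = 0.00294) and -1.15 ± 0.38 (adjusted p = 0.0386). The first Arrdc3 call was lost without KO replicate 5 (adjusted p = 0.11) or WT replicate 4 (0.26), and the second without KO replicate 5 (0.391), KO replicate 7 (0.0809), WT replicate 4 (0.114) or WT replicate 8 (0.435). Glul, glutamine synthetase, had a wide peak (chr1:153909293-153912343) at 61.0, 57.4 and 58.8 CPM in KO and 79.4, 108 and 85.0 CPM in WT. Its KO libraries were even and below all WT libraries (-0.62 ± 0.18, adjusted p = 0.01), with a narrow neighbour at -1.0 ± 0.28 (adjusted p = 0.00976). Without KO replicate 5 these Glul calls were at 0.164 and 0.0747, without KO replicate 7 at 0.0528 and 0.0565, and without WT replicate 4 at 0.0849 and 0.1, and the narrow one was at 0.112 without WT replicate 3. None of the Grk3, Arrdc3 and Glul peaks passed in the authors' deposited table (adjusted p = 0.0642 to 0.471).

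The remaining deep falls were at genes of varied function and kept their calls under every alternative run, except Rnf216. Ubl7, which encodes a ubiquitin-like protein, had 4.91, 5.34 and 4.94 CPM in KO and 17.9, 19.97 and 13.6 CPM in WT (-1.76 ± 0.24, adjusted p = 7.34e-11). Tecpr2, which acts in autophagy, had a wide peak with 47.0, 32.9 and 26.5 CPM in KO and 108, 134 and 76.2 CPM in WT (-1.58 ± 0.18, adjusted p = 4.84e-15). Asxl2, a chromatin protein that works with the BAP1 deubiquitinase, had 12.9, 15.5 and 13.6 CPM in KO and 33.2, 49.0 and 25.0 CPM in WT (-1.35 ± 0.20, adjusted p = 2.48e-09). At each of these, all KO libraries were below all WT libraries, as the rule that named them requires. The others were Sub1, the transcription coactivator PC4 (-1.68), Fntb, the beta subunit of farnesyltransferase (-1.66, assigned by the table to Max), Spata4 (-1.56), Det1, part of a ubiquitin ligase complex (-1.45), Tmem64 (-1.43) and Rnf216, a ubiquitin ligase (-1.35). Their adjusted p-values ran from 1.01e-10 (Spata4) to 0.000447 (Tmem64), and Rnf216 missed the threshold in the authors' deposited table (adjusted p = 0.0535). Weaker falls in genes of the muscle lists were at Camk2d, a calcium-dependent kinase upstream of MEF2 (-0.97, adjusted p = 0.03), Jph1, a junctional protein of the triad (-0.74, adjusted p = 0.00942), the peak over Hcls1 that the table assigns to the muscle F-box gene Fbxo40 (-0.66, adjusted p = 0.0329), and Myom1, a protein of the M band (-0.65, adjusted p = 0.0495). All 4 were lost without KO replicate 5 (adjusted p = 0.0994, 0.198, 0.611 and 0.411), KO replicate 7 (0.274, 0.103, 0.166 and 0.266) and WT replicate 4 (0.292, 0.225, 0.286 and 0.119), and in the authors' deposited table (0.332, 0.408, 0.516 and 0.482). Hcls1 and Myom1 were also lost without WT replicate 8 (adjusted p = 0.0661 and 0.216), and Myom1 without WT replicate 3 (0.0631).

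Kyat3, an aminotransferase of the kynurenine pathway, had a peak of the class 18174 bases from its outermost 3' end (chr3:142725658-142726737). The peak had 25.7, 25.6 and 20.8 CPM in KO, against 4.84, 6.90 and 7.63 CPM in WT. The KO libraries were about alike and far above every WT library (1.90 ± 0.22, adjusted p = 3.09e-14). Psat1, which makes phosphoserine on the way to serine, had 21.2, 17.6 and 16.4 CPM in KO (chr19:15903795-15905474), against 5.35, 5.80 and 7.24 CPM in WT. That rise was 1.59 ± 0.23 (adjusted p = 2.12e-09), with the Psat1 promoter at 0.51 and short of the threshold (adjusted p = 0.0896). Pfkfb3 makes and breaks fructose 2,6-bisphosphate, the activator of glycolysis, and had a pair of called peaks. The wide one (chr2:11481421-11484194) had 49.6, 70.9 and 36.6 CPM in KO and 25.2, 23.1 and 23.0 CPM in WT (1.14 ± 0.19, adjusted p = 2.15e-07). The narrow one had 10.7, 22.0 and 7.41 CPM in KO and 6.28, 3.96 and 7.77 CPM in WT, so that KO replicate 7 lay under WT replicate 8 (1.18 ± 0.24, adjusted p = 6.91e-05). At this narrow Pfkfb3 peak the call was lost without KO replicate 5 (adjusted p = 0.321) and with DESeq2 (0.219), while the wide peak passed under every alternative run.

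Rab14, a GTPase of endosomes, had 31.1, 31.2 and 20.8 CPM in KO and 7.92, 8.65 and 11.6 CPM in WT (1.57 ± 0.21, adjusted p = 7.04e-11). Ankrd33b, whose peak the table assigns to Dap, had 23.1, 19.9 and 18.8 CPM in KO and 6.48, 7.73 and 11.7 CPM in WT (1.27 ± 0.22, adjusted p = 1.15e-06). Nt5c3b, a nucleotidase, had 12.4, 20.3 and 14.6 CPM in KO and 5.45, 5.15 and 7.90 CPM in WT (1.37 ± 0.23, adjusted p = 8.86e-07). In all of these the groups were apart, as the rule that named them requires. At Nt5c3b the promoter rose as well (0.69, adjusted p = 0.0295). The next 3 passed under every alternative run: 2510039O18Rik (1.41), Slc22a7, an organic anion transporter (1.36, assigned by the table to Crip3), and Adamts16, a secreted protease (1.21, assigned by the table to Ice1). The next pair of rises were less firm. Fam174b (1.44, adjusted p = 0.0276) was lost without KO replicate 4 (adjusted p = 0.128), KO replicate 5 (0.195), WT replicate 3 (0.146) or WT replicate 4 (0.064). Zfp251, a zinc finger gene (1.37, adjusted p = 0.0405), was lost without KO replicate 4 (adjusted p = 0.105), 5 (0.0675) or 7 (0.246) and without WT replicate 3 (0.0963) or 4 (0.177).

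**Figure D4:**
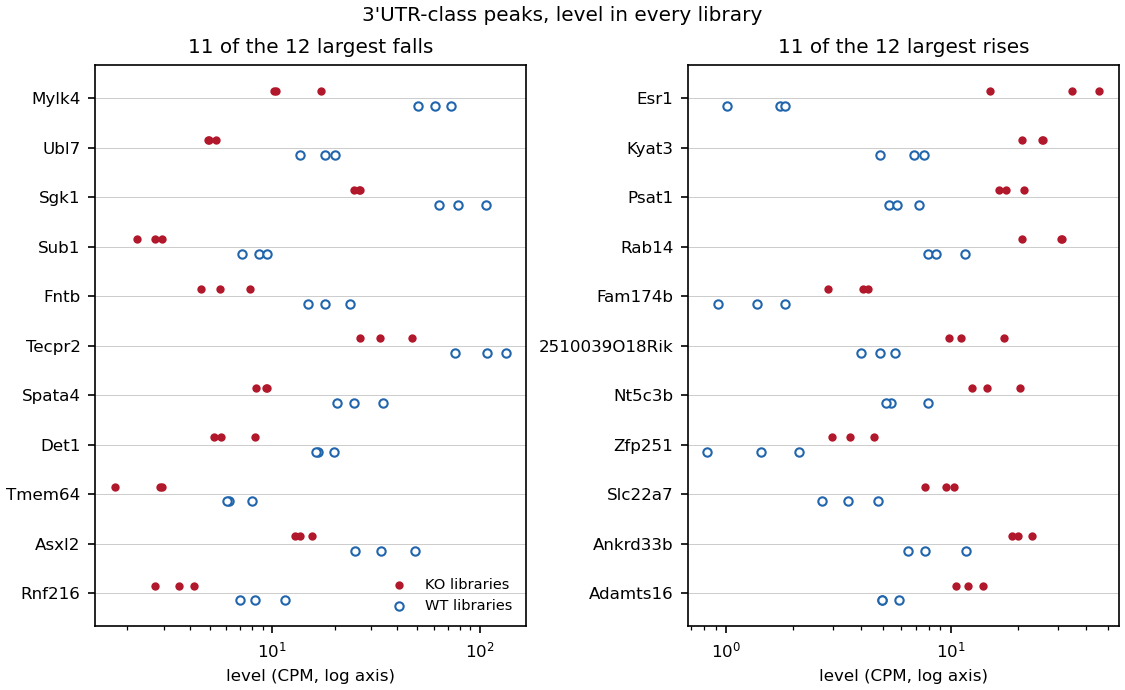
Level in CPM (horizontal axis, log scale) in each KO library (filled, upper row of each gene) and each WT library (open, lower row) for 11 of the 12 largest falls and 11 of the 12 largest rises over 3'UTRs among called peaks whose groups do not overlap. Mylk4 and Sgk1 are the clearest falls among highly covered peaks, and Esr1 has the widest gap, with 15.04 to 45.9 CPM in KO and 1.01 to 1.84 CPM in WT.

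The largest rise of the class lay inside Esr1, the gene of oestrogen receptor alpha, a hormone-activated transcription factor. The peak was 4203 bases from the gene's outermost 3' end. This narrow peak of 245 bases (chr10:5001186-5001430), which the table assigns to Syne1, had 34.6, 15.04 and 45.9 CPM in KO replicates 4, 5 and 7, against 1.75, 1.01 and 1.84 CPM in WT replicates 3, 4 and 8. KO replicate 5 was lower than the other KO libraries, and all 3 were far above WT. The log2 fold change of 4.39 ± 0.27 (adjusted p = 3.57e-56) was the second highest of all 73896 tested peaks. The highest was also inside Esr1: its single exon-class peak (chr10:4856925-4857194, 270 bases) had 42.0, 15.4 and 41.8 CPM in KO, against 0.823, 1.56 and 1.19 CPM in WT (4.76 ± 0.27, adjusted p = 2.45e-62). KO replicate 5 was the lowest KO library at both. The other 27 tested peaks in the gene (chr10:4611990-5005630) lay between -1.11 and 0.62, with 0 called higher and 2 called lower, and the Esr1 promoter peak nearest the named start was at -0.39 (adjusted p = 0.418). No intron or promoter peak of the gene was called higher. Reads from a copy of Esr1 sequence elsewhere in the genome, such as the receptor part of an inducible Cre transgene, would map to the same stretches, and the labels do not say how Prr14 was deleted. Whether these reads came from the Esr1 locus itself was not tested, so the values belong to its sequence and may not describe its chromatin.

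None of the most covered and the widest peaks of the class, 4 in all, was called changed. A peak of 7783 bases without a coding host (chr19:5842822-5850604, assigned by the table to Frmd8) covers part of the noncoding RNA gene Neat1, which builds nuclear paraspeckles. It had 454, 509 and 476 CPM in KO and 433, 542 and 393 CPM in WT, or 60.1 CPM per kb on average, and its groups overlapped (0.07 ± 0.17, adjusted p = 0.902). A pair of peaks in Sfi1, a centrosome gene, reached 336 to 437 CPM and 324 to 432 CPM in KO, with log2 fold changes of -0.11 each. In WT they had 312 to 522 CPM and 305 to 529 CPM. The pair had nearly the same level in every library, at 76.5 and 76.3 CPM per kb, against a class median of 9.22 CPM per kb. Whether reads there map to more than 1 place was not tested. Mvp, the major vault protein, had 41.9, 47.2 and 39.5 CPM in KO and 52.5, 70.5 and 47.9 CPM in WT over 5256 bases. The Mvp libraries were apart with KO lower, but the difference did not pass (-0.41 ± 0.18, adjusted p = 0.177).

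Across the 16 gene lists on muscle, metabolism, the nucleus and RNA, 89 tested peaks over 3'UTRs lay in a listed gene, and 2 were higher and 14 lower in KO, with a median log2 fold change of -0.13. When peaks were given the gene that the table names, as an alternative chosen after seeing the data, 80 peaks lay in a listed gene, with 3 higher and 11 lower. Without KO replicate 5 the falls came to 5, and without KO replicate 7 or WT replicate 4 to 6 each. The calls of the glycogen and glycolysis list are not all reported here, so its balance of rises and falls cannot be read from the genes named. In it both Pfkfb3 peaks were higher, while Ldha, lactate dehydrogenase A, and Phkg1, a subunit of phosphorylase kinase, were at -0.40 and -0.27. The list of atrophy and growth signalling gave 4 lower of 9 (both Pik3r1 peaks, Fbxo32 and Foxo1), with a median of -0.50. In the same list, all KO libraries lay above all WT libraries at Akt2, a kinase of insulin signalling (0.65, adjusted p = 0.175), and Acvr2b, a receptor of myostatin (0.66, adjusted p = 0.324), and neither passed. Fast fibre genes gave 2 lower of 6, and slow fibre genes 0 called of 5, at -0.65 to 0.02. Sarcomere and Z disc genes gave 1 lower of 16 (Myom1), with Ttn, the giant spring protein, at -0.37 and Des, desmin, at 0.23. MEF2 factors and their partners gave 1 lower of 6 (Camk2d). The other Camk2d peaks of the class, at 0.40 and -0.46, were not called (adjusted p = 0.59 and 0.521). Mef2d had 41.2, 49.7 and 42.6 CPM in KO and 39.9, 62.7 and 41.9 CPM in WT, which overlapped (-0.12 ± 0.18, adjusted p = 0.834), Hdac4 was at 0.20, and no peak of the class lay in Mef2a or Mef2c.

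In the other lists few peaks were called. The calcium and triad list gave 1 lower of 9 (Jph1), with a median of -0.37. Oxidation and mitochondria gave 0 called of 5, at 0.12 to 0.56 with a median of 0.30, where Cpt1b, which brings fatty acids into mitochondria, came closest (0.56, adjusted p = 0.065). None was called among 2 peaks of the dystrophin complex, 2 of the neuromuscular junction, 6 of the mechanoresponse list, 3 of the nuclear envelope and heterochromatin list, 5 of the circadian list, 4 of the RNA-binding and splicing list and 1 of the list of miRNA and 3' end processing. The myogenic and satellite cell list had no peak in the class. Nearest the threshold in the mechanoresponse list were a peak over Mrtfb, a coactivator of serum response factor (-0.58, adjusted p = 0.0675), and one over Ankrd1, a stretch-induced muscle protein (-0.90, adjusted p = 0.0821).

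Most promoters of the same genes were not called. Counted per called peak, the share with a promoter called in the same direction was larger than that of promoters at large. This difference rests on few promoters and was not tested. Of the 75 higher peaks, 57 had a host with a tested promoter peak, and the promoter was higher for 5 (8.77%) and lower for 0. Of the 109 lower peaks, 98 had such a host, and the promoter was higher for 0 and lower for 3 (3.06%). A promoter whose gene held several called peaks was counted once for each of them. Over 12275 promoter peaks of the table, 1 a gene, 0.823% were higher and 0.684% lower. Falls at some of these genes were not limited to the 3'UTR. Among tested peaks that the table assigns to the gene, 21 of 28 were lower at Mylk4 and 17 of 32 at Pde4dip. At Pik3r1 21 of 61 were lower and at Foxo1 12 of 48, with 0 higher at each of these genes. At Fbxo32 0 of 9 were lower, at Fntb 0 of 8 and at Asxl2 1 of 6. The called 3'UTR peaks of Fbxo32 and Fntb are outside these counts, since the table assigns them to Wdyhv1 and Max. Counts at the other genes can include 3'UTR peaks. Peaks within 1 kb of a start were seldom called (2.07%), and the share was 5.87% at 1 to 2 kb and 9.59% at 2 to 3 kb from a start, while peaks over 3'UTRs were called about as often as those in introns (8.32%), other exons (9.06%), 5'UTRs (7.87%) and intergenic DNA (8.0%). Peaks over 3'UTRs were also less covered than promoters, with a median of 9.22 CPM per kb, against 16.2 CPM per kb at promoters within 1 kb and 8.86 CPM per kb over all tested peaks.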

How the data were processed

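The authors deposited 1 common peak list with whole-number counts per peak and library, the same counts as a normalized signal divided by 1 factor per library, their log2 fold change with p-values raw and adjusted, and a score per peak. Per the submitters' processing notes, Trimmomatic, BWA, MACS2, deepTools, bedtools and DESeq2 1.6.3 were used on GRCm38. Read shift, duplicate handling, counting and whether coordinates count from 0 or 1 are not given there. From the deposited counts, edgeR 4.0.16 (R 4.3.3) was run across all peaks with TMM, filterByExpr (minimum count 10, minimum total 15) and the two-sided quasi-likelihood test, without a covariate. Called means a Benjamini-Hochberg adjusted p below 0.05 over the 73896 tested peaks, and adjusted p-values without a named tool come from it. CPM are scaled with TMM, and the SE is the log2 fold change divided by the square root of F. The procedure was tested on simulated data. Alternatives included DESeq2 1.42.0, limma-voom (limma 3.58.1), other scalings and filters, and leaving out each library. Host genes, starts and sequences come from RefSeq tables of GRCm38.p6, in which 26 peaks' deposited gene symbols were not matched. Named peaks were the 12 largest falls and rises among called peaks with groups apart, called peaks on the gene lists, the 3 most covered and 3 widest, up to 6 genes with 2 or more called peaks, and the peaks of Myh8 and the MEF2 genes. Members, lists and rules were chosen with earlier results of these data known. The text also names some list members that did not pass, chosen after their values were seen. Results at some of the genes these rules name are not reported here.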

Additional observations from a re-analysis of the deposited data

How the results depend on the processing

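No paired analysis was possible because the groups share only replicate number 4. Of 52 named called peaks, 21 passed under every alternative run and 0 reversed. With the authors' library factors, falls over 3'UTRs came to 15, the median log2 fold change to 0.17, all tested peaks called to 2372, the 4 width classes to 9, 32, 23 and 7 calls and the listed falls to 3. In the authors' deposited table these were 13, 0.17, 2201, then 7, 26, 29 and 12, and 4. With TMM from promoter peaks, rises came to 46, the median to -0.10 and the narrower pair of width classes to 11 and 36. DESeq2 gave 70 falls, 39 calls from 500 to under 1000 bases, and 1 rise and 7 falls in listed genes. At an adjusted p below 0.01 there were 43 rises, 66 falls and 3073 of all tested peaks called, with 7, 34, 50 and 18 by width. Peaks inside their deposited gene and over 3 kb from RefSeq starts gave 45 rises and 66 falls. Leaving out 1 library gave 33 to 84 rises, 37 to 111 falls, 2470 to 5359 of all tested peaks called, 3 to 21, 24 to 59, 39 to 81 and 11 to 34 calls by width, a median of -0.06 to 0.03, listed rises of 1 to 3 and listed falls of 5 to 15, and a difference in the share of counts of -0.031 to 0.145 percentage points. The authors' library factors ran from 0.977 to 1.035, while total counts in peaks ran from 7608514 to 12061822. The part of this in the scalings and deposited table above was not tested, nor was any other cause. Without 1 library fewer samples enter the fit. Intervals between libraries rest on 3 samples a group, and narrow peaks, with a median of 2.73 CPM, were the least precise.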
